A study of Oryza sativa Indica Group with 6 samples.

Results

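The nuclear genes of photosynthesis and chlorophyll synthesis were examined in young panicles of the wild type and of the *ssh1* mutant of rice. The list holds 50 locus IDs for light-harvesting proteins, photosystem subunits, electron carriers, Calvin cycle enzymes, enzymes of chlorophyll synthesis, and the GLK1/2 transcription factors. Of these, 49 were found among the 55982 locus IDs of the expression tables and 1 Calvin cycle locus, LOC_Os12g19394, was not analysed here. The rule for the list names functions and uses no measured value, although it was drawn up with earlier results of these data known. The classes are those of the list. Each locus was assigned to its class from general knowledge of the rice genome, because the tables give locus IDs without names and the gene table at hand matched 0 of the members.

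Panicles of 0 to 4 cm were sampled from YIL100 (genotype label wild type) and from *ssh1* (genotype label SSH1-/-), with 3 replicates per genotype, each a pool of plants, so that 6 samples were compared. YIL100 is a line of an *indica* variety that carries segments of the wild rice *Oryza rufipogon*, and *ssh1* is a single mutant line obtained from it by chemical mutagenesis with EMS. It carries a point mutation in an intron of *SNB* (LOC_Os07g13170), a gene for an AP2-type transcription factor of the inflorescence. Plant age and the light conditions at harvest are not given in the sources used here. Each panicle sample holds many cell types, so fewer cells of a type and less RNA per cell cannot be told apart.

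Chloroplasts build their photosystems partly from proteins that are encoded in the nucleus. Light-harvesting proteins bind chlorophyll and pass excitation energy to the photosystems, the electron carriers link the photosystems and deliver reducing power, and the Calvin cycle enzymes use it to fix carbon. GLK proteins (GOLDEN2-LIKE) are transcription factors that, in rice and Arabidopsis, promote chloroplast development and activate genes for light harvesting and chlorophyll synthesis. The outer organs of a rice spikelet, the lemma and palea, can be green tissues. Whether they were green in the sampled young panicles is not given in the sources used here.

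The measure is FPKM, the number of sequenced fragments on a gene divided by the length of its exons and by the library size, so that levels of different genes may be compared. The number of reads per library is unknown. From the spacing of low values, the depth of the other replicates relative to wild-type replicate 1 was estimated at -0.24 to 0.06 on the log2 scale. The estimate kept only small ratios between replicates, so it could not have shown a large difference in depth. The sums of FPKM were 832551 to 978426 per replicate. *SNB* was at 20.9, 16.9, and 18 FPKM in the wild type and at 7.97, 7.44, and 8.86 FPKM in *ssh1*, lower in each *ssh1* replicate. The summed level of the 12 of 13 inflorescence and floral marker loci that were tested was 1193 to 1358 FPKM in the wild type and 1002 to 1168 FPKM in *ssh1*, so markers of the labelled tissue were present in all 6 samples. Of 5 anther and tapetum marker loci, LOC_Os11g37280 was listed at 0 in all 6 samples, LOC_Os04g51070 reached at most 0.474 FPKM, and LOC_Os02g02820 was at 0.233 to 1.58 FPKM in the wild type and 0.189 to 0.210 FPKM in *ssh1*. LOC_Os07g36460 was at 4.01 to 4.75 FPKM in the wild type and 2.29 to 3.82 FPKM in *ssh1*, without overlap (limma adjusted p = 0.0892), and LOC_Os08g03682 was at 2.02 ± 0.303 and 1.41 ± 0.246 FPKM (SD, n = 3 each, limma adjusted p = 0.117).

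A gene was tested when its mean over the 6 samples was at least 1 FPKM, which 18537 genes reached. Among the members, 47 were tested. LOC_Os02g52650, a light-harvesting locus, was below that level (0.132 to 0.627 FPKM) and LOC_Os09g30340, a photosystem locus, was listed at 0 in all 6 samples. LOC_Os09g26810 and LOC_Os12g19470 passed only through their level in *ssh1*, and the other 45 had a mean of at least 1 FPKM in each genotype. Differences were estimated with limma on log2(FPKM + 1), *ssh1* minus wild type, with Benjamini-Hochberg adjustment over all genes tested. Below, a gene is said to have risen or fallen where the adjusted p was below 0.05, and the stricter thresholds ask for a 2-fold change as well as an adjusted p below 0.001. The added 1 FPKM understates changes of weakly expressed genes. Over all genes tested the median log2 fold change was -0.14, and scaling by the median of ratios moved it to -0.01, and each fold change is best compared with that shift.

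The photosynthesis genes were well expressed in the young panicle. Mean levels of the 47 tested loci ran from 1.21 to 153 FPKM with a median of 29.1 FPKM, against a median of 11.7 FPKM over all genes tested. In the top 10% of all genes tested by level there were 11 of the 47. The median level per class was 53.9 FPKM for photosystem subunits, 50.6 FPKM for light-harvesting loci, 22.0 FPKM for chlorophyll synthesis, 12.8 FPKM for electron carriers, 11.5 FPKM for the GLK pair, and 9.59 FPKM for the Calvin cycle. The 6 loci above 100 FPKM on average were 4 light-harvesting loci, 1 photosystem locus, and 1 chlorophyll synthesis locus. The tested members lay on all 12 chromosomes, with up to 7 on a chromosome.

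**Figure D1:**
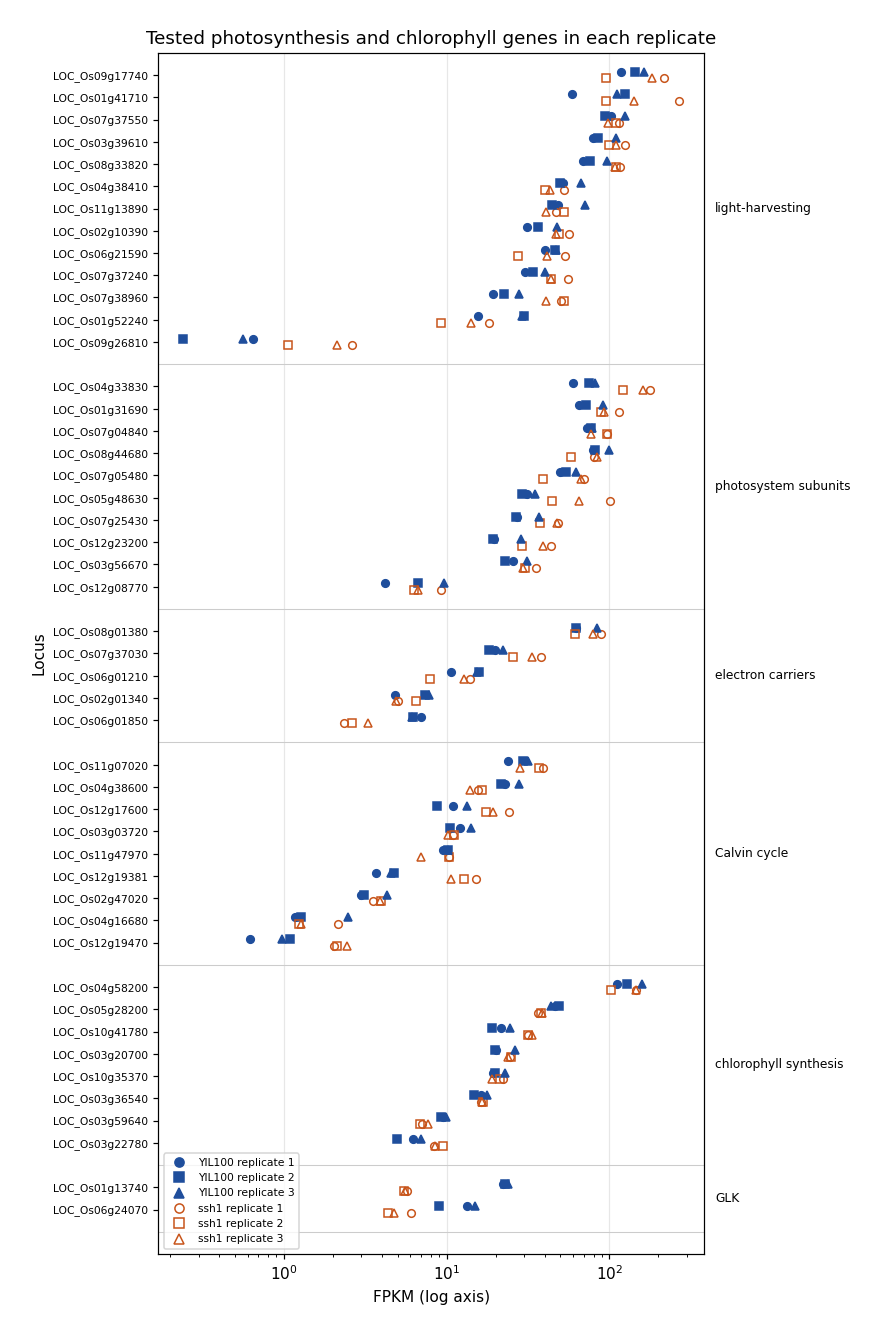
FPKM of the 47 tested loci in each replicate on a log axis, with loci in rows grouped by class (blue filled symbols, wild type YIL100; orange open symbols, *ssh1*; circles, squares, and triangles for replicates 1, 2, and 3). In the GLK class the genotypes are apart for both loci, at 8.94 to 23.8 FPKM in the wild type and 4.36 to 6.04 FPKM in *ssh1*, whereas the symbols of most light-harvesting loci overlap.

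The GLK pair fell in *ssh1*. LOC_Os01g13740 was at 22.3, 23.0, and 23.8 FPKM in the wild type and at 5.71, 5.45, and 5.59 FPKM in *ssh1*. The replicates within a genotype were close together and the genotypes far apart. The means of the genotypes were 23.0 ± 0.738 and 5.59 ± 0.129 FPKM (SD, n = 3 each), 4.12-fold lower in *ssh1*, with a log2 fold change of -1.87 (SE 0.07, limma adjusted p = 4.27e-05). It was the only member past the stricter thresholds, 1 of 47, where 1.92% of all genes tested were called lower and 3.19% higher, the latter against 0 members. With the replicate number as a block its adjusted p was 0.0028 and it was no longer past them. By the size of its fall it stood at rank 186 of 18537 genes, and by its p-value at rank 43.

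LOC_Os06g24070, the other GLK locus, was at 13.4, 8.94, and 15 FPKM in the wild type and at 6.04, 4.36, and 4.75 FPKM in *ssh1*. All *ssh1* replicates were again below all wild-type replicates, with a wider spread in the wild type than for LOC_Os01g13740. The means were 12.4 ± 3.15 and 5.05 ± 0.877 FPKM (SD, n = 3 each), a ratio of 0.406 and a log2 fold change of -1.13 (SE 0.20, limma adjusted p = 0.00629). Its rank was 950 of 18537 genes by the size of the fall and 3744 by the p-value. With any single replicate removed, the log2 fold change lay between -1.34 and -0.99 for LOC_Os06g24070 and between -1.89 and -1.84 for LOC_Os01g13740. An exact permutation test (two-sided) of 3 samples against 3 cannot give a p below 0.1. Both GLK loci had that smallest p, as did every other locus below whose genotypes did not overlap.

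**Figure D2:**
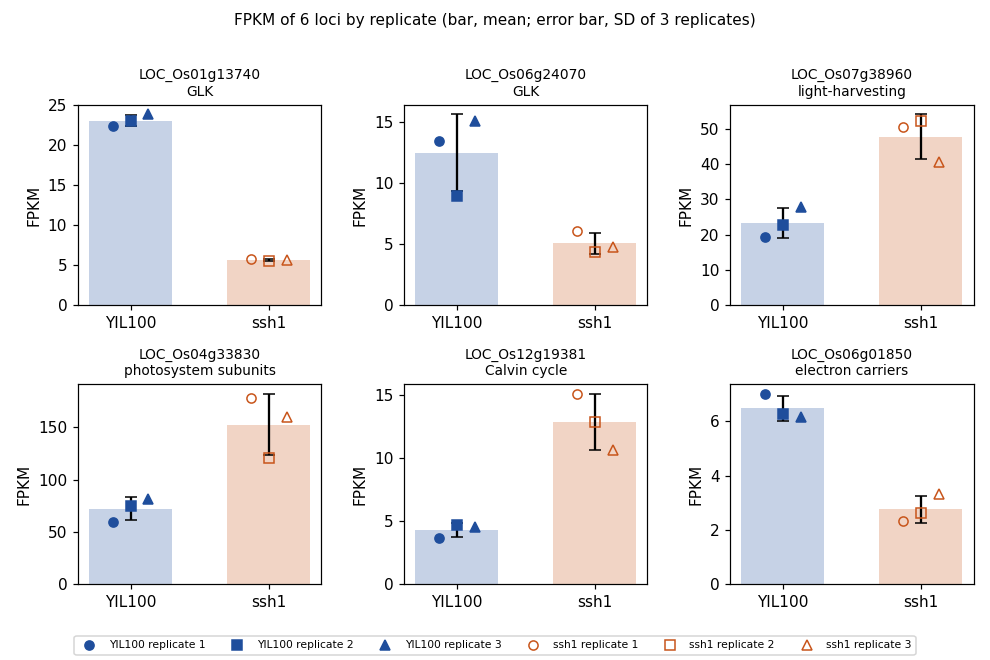
FPKM of 6 loci by replicate, each on its own axis from 0 (bars, group means; error bars, SD of 3 replicates; symbols, replicates). The GLK loci LOC_Os01g13740 and LOC_Os06g24070 and the electron carrier locus LOC_Os06g01850 were lower in all 3 *ssh1* replicates, and LOC_Os07g38960, LOC_Os04g33830, and LOC_Os12g19381 were higher in all 3.

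Apart from the GLK pair, no class fell as a whole. Where a 2-fold change with an adjusted p below 0.05 was asked for, 4 of the 47 tested members were higher in *ssh1* (8.51% of them, against 7.07% of all genes tested) and 2 were lower (4.26% against 5.95%). The 2 were the GLK loci and the 4 were LOC_Os07g38960, LOC_Os05g48630, LOC_Os04g33830, and LOC_Os12g19381. These shares were near those of all genes. Without wild-type replicate 1, or without *ssh1* replicate 1, only LOC_Os12g19381 of the 4 was still past these thresholds.

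Smaller changes were counted by the adjusted p alone, a rule added after the data had been seen. By this rule 14 of the 47 members rose and 6 fell (29.8% and 12.8% of the members), where 17% of all genes tested rose and 28% fell. LOC_Os09g26810 and LOC_Os12g19470, tested only through *ssh1*, could enter only as higher. Where the mean reached 1 FPKM in both genotypes, 12 of 45 members rose and 6 fell (26.7% and 13.3%), against 15.8% and 28.1% of such genes overall. The 14 among the 47 were 4 light-harvesting loci, 4 photosystem loci, 3 Calvin cycle loci, 2 chlorophyll synthesis loci, and 1 electron carrier locus. The 6 were both GLK loci, 2 chlorophyll synthesis loci, 1 electron carrier locus, and 1 Calvin cycle locus. For the same number of loci, 14 and 6, the replicates of the genotypes did not overlap (12 and 6 of the 45), where this held for 21.7% of all genes tested in the higher direction and 38% in the lower direction. After median-of-ratios scaling 18 members rose and 4 fell, with 21.7% and 19.2% of all genes tested. Without wild-type replicate 1 or wild-type replicate 2, 6 members rose, and without *ssh1* replicate 1, 9 rose. In those 3 fits 12.3%, 12.9%, and 14.0% of all genes rose.

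**Figure D3:**
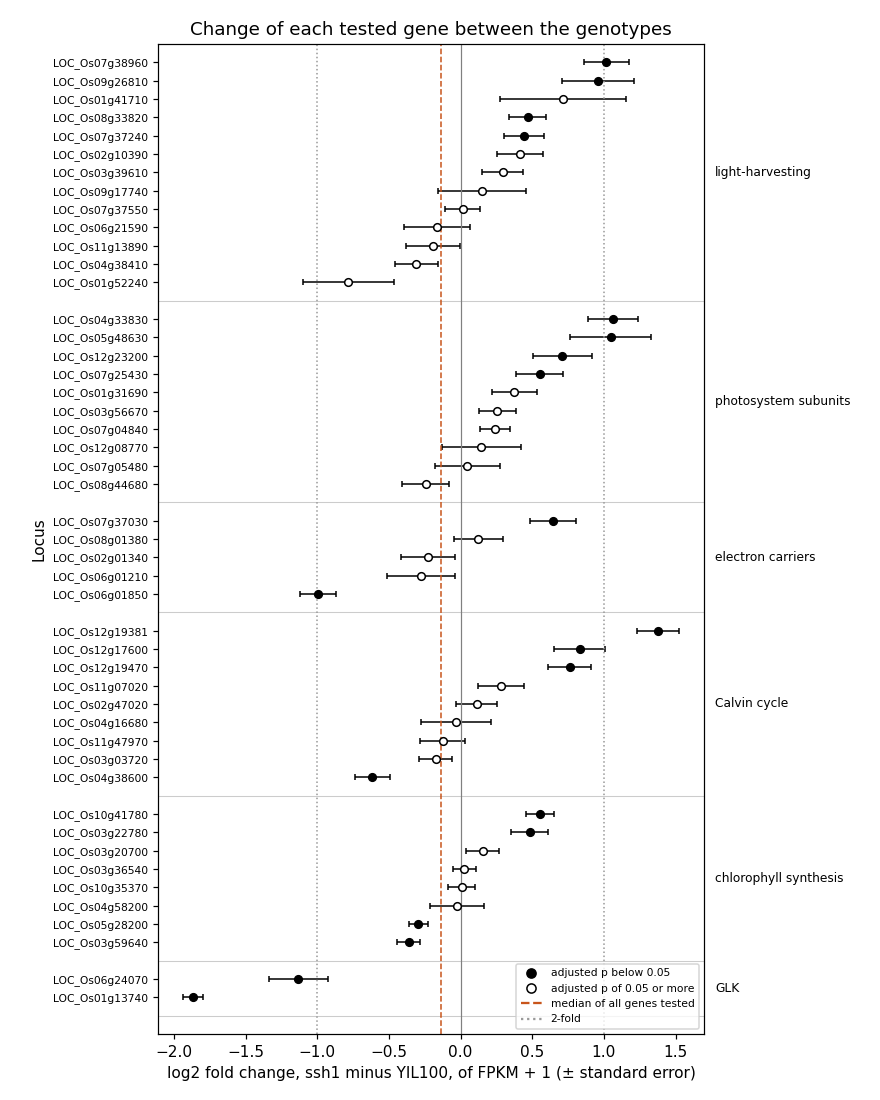
Log2 fold change of each tested locus, *ssh1* minus wild type on log2(FPKM + 1), with its standard error, grouped by class (filled, adjusted p below 0.05 from limma; dashed line, median of all genes tested at -0.14; dotted lines, 2-fold). Both GLK loci are left of the lower dotted line, 9 of the 10 photosystem loci are right of 0, and the other classes have loci on both sides.

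Among the 13 tested light-harvesting loci, 4 rose, 0 fell, and 9 did not pass the test. Of all genes tested, 17% rose and 28% fell. LOC_Os07g38960 was at 19.4, 22.7, and 27.7 FPKM in the wild type and at 50.6, 52.4, and 40.7 FPKM in *ssh1*, with no overlap. Its mean rose from 23.3 ± 4.23 to 47.9 ± 6.31 FPKM (SD, n = 3 each), that is, by a log2 fold change of 1.02 (SE 0.16, limma adjusted p = 0.0035). LOC_Os08g33820 rose from 69.0, 76.2, and 96.4 FPKM to 115, 109, and 107 FPKM, 1.37-fold on average (limma adjusted p = 0.0265). LOC_Os07g37240 rose by the same factor, 1.37, from 34.8 ± 5.07 to 47.7 ± 6.66 FPKM (SD, n = 3 each, limma adjusted p = 0.042). The weakest locus of the class, LOC_Os09g26810, was at 0.645, 0.241, and 0.559 FPKM in the wild type and at 2.62, 1.06, and 2.12 FPKM in *ssh1* (log2 fold change 0.96, limma adjusted p = 0.0236), but it was tested only because of its level in *ssh1*, which left no other direction.

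The 4 most abundant light-harvesting loci did not pass the test. LOC_Os09g17740, the most abundant member, was at 118, 144, and 162 FPKM in the wild type and at 215, 95.7, and 183 FPKM in *ssh1*. The lowest and the highest of the 6 values were both in *ssh1*, and the log2 fold change was 0.15 (SE 0.31, limma adjusted p = 0.719). Without *ssh1* replicate 1 it was -0.085, and without *ssh1* replicate 2 it was 0.50 and passed the test (limma adjusted p = 0.0454). LOC_Os01g41710 was at 59.0, 124, and 111 FPKM in the wild type and at 268, 94.9, and 142 FPKM in *ssh1*, where replicate 1 stood far above the others (log2 fold change 0.71, SE 0.44, limma adjusted p = 0.227). LOC_Os07g37550 had a mean of 107 ± 16.0 FPKM in the wild type and 108 ± 8.30 FPKM in *ssh1* (SD, n = 3 each). For LOC_Os03g39610 the means were 91.5 ± 15.4 and 112 ± 12.7 FPKM (SD, n = 3 each, limma adjusted p = 0.136).

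LOC_Os01g52240 had the lowest log2 fold change of the class, -0.78 (SE 0.32, limma adjusted p = 0.0912). Its values were 15.5, 29.9, and 28.9 FPKM in the wild type and 18.2, 9.30, and 14.2 FPKM in *ssh1*, overlapping through wild-type replicate 1, and without that replicate it was past a fold change of 2 at an adjusted p below 0.05. The log2 fold changes of LOC_Os02g10390, LOC_Os06g21590, LOC_Os11g13890, and LOC_Os04g38410 were 0.42, -0.16, -0.19, and -0.31, none past the test. The median over the class was 0.29, and it was between 0.26 and 0.43 under the other scalings and 0.087 without *ssh1* replicate 1. With a minimum mean of 5 FPKM, which left out LOC_Os09g26810, it was 0.22 over 12 loci. Light-harvesting genes include close copies, and how reads were divided among copies in FPKM is not given in the sources used here, so the split between such loci is uncertain.

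Of all genes tested, 17% rose, 28% fell, and 38.3% had a log2 fold change above 0. Among the 10 tested photosystem loci, 4 rose, 0 fell, and 9 had a log2 fold change above 0. LOC_Os04g33830, the most abundant and the one with the largest change, was at 59.8, 75.3, and 81.4 FPKM in the wild type and at 178, 120.4, and 159.8 FPKM in *ssh1*. It rose from 72.2 ± 11.1 to 153 ± 29.4 FPKM (SD, n = 3 each), that is, by a log2 fold change of 1.06 (SE 0.18, limma adjusted p = 0.00477). LOC_Os05g48630 was at 31.2, 28.9, and 34.9 FPKM in the wild type and at 101.5, 44.2, and 64.7 FPKM in *ssh1*. The genotypes did not overlap, but the *ssh1* values were spread over a wide range (log2 fold change 1.05, SE 0.29, limma adjusted p = 0.0269). Without *ssh1* replicate 1 its log2 fold change was 0.74, and without *ssh1* replicate 3 or any wild-type replicate the adjusted p was 0.0568 to 0.085.

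LOC_Os12g23200 rose from 19.5, 19.4, and 28.8 FPKM to 44.1, 29.2, and 39.1 FPKM, 1.66-fold (limma adjusted p = 0.0333). LOC_Os07g25430 rose from 30.2 ± 5.96 to 44.5 ± 6.13 FPKM (SD, n = 3 each), 1.47-fold (limma adjusted p = 0.035). In both, the closest values of the genotypes, wild-type replicate 3 and *ssh1* replicate 2, were almost equal. Of the 6 loci that did not pass, LOC_Os01g31690 was at 76.0 ± 14.1 and 98.5 ± 13.8 FPKM, LOC_Os07g04840 at 75.8 ± 2.60 and 90.0 ± 11.5 FPKM, and LOC_Os08g44680 at 87.0 ± 10.7 and 73.9 ± 14.2 FPKM in the wild type and *ssh1* (SD, n = 3 each). LOC_Os08g44680 was the only locus of the class with a log2 fold change below 0, -0.24 (limma adjusted p = 0.262). LOC_Os03g56670, LOC_Os12g08770, and LOC_Os07g05480 were at 0.26, 0.14, and 0.05 on the same log2 scale. The class median was 0.32, and it stayed above 0 under the other scalings (0.29 to 0.45) and with each replicate left out (0.22 to 0.46).

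The 5 electron carrier loci moved in different directions. LOC_Os06g01850 was at 7.0, 6.26, and 6.15 FPKM in the wild type and at 2.34, 2.63, and 3.30 FPKM in *ssh1*, so that no values overlapped. Its mean fell from 6.47 ± 0.464 to 2.76 ± 0.495 FPKM (SD, n = 3 each), a ratio of 0.426, while the log2 fold change of FPKM + 1 was -0.997 (SE 0.13, limma adjusted p = 0.0018), just short of 2-fold on that scale. LOC_Os07g37030 rose from 19.9, 18.3, and 22.3 FPKM to 38.2, 25.5, and 33.5 FPKM, 1.61-fold (log2 fold change 0.64, limma adjusted p = 0.0189). The most abundant locus of the class, LOC_Os08g01380, was at 69.8 ± 12.3 and 76.3 ± 13.6 FPKM (SD, n = 3 each, limma adjusted p = 0.581). For LOC_Os06g01210 and LOC_Os02g01340 the log2 fold changes were -0.27 and -0.23, with overlapping values.

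In the Calvin cycle class, LOC_Os12g19381 and LOC_Os12g17600 on chromosome 12 rose. LOC_Os12g19381 was at 3.67, 4.75, and 4.57 FPKM in the wild type and at 15.1, 12.9, and 10.7 FPKM in *ssh1*, with no overlap. It rose from 4.33 ± 0.578 to 12.9 ± 2.22 FPKM (SD, n = 3 each), 2.98-fold, and its log2 fold change of 1.38 was the highest of all tested members (SE 0.15, limma adjusted p = 0.00106). LOC_Os12g17600 rose from 10.9, 8.73, and 13.3 FPKM to 24.3, 17.4, and 19.2 FPKM, 1.84-fold (log2 fold change 0.83, limma adjusted p = 0.012). LOC_Os12g19470 was at 0.621, 1.09, and 0.982 FPKM in the wild type and at 2.04, 2.13, and 2.45 FPKM in *ssh1* (log2 fold change 0.76, limma adjusted p = 0.00876), but it was tested only because of its level in *ssh1*, so its direction was fixed by the filter. These loci belong to a family of close copies on chromosome 12 that also holds LOC_Os12g19394, and reads may be shared among them, so their separate values are uncertain.

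Of the other 6 Calvin cycle loci, 1 fell and 5 did not pass the test. In the whole class 3 of 9 rose and 1 of 9 fell, where 17% and 28% of all genes tested did. LOC_Os04g38600 fell from 22.7, 21.7, and 28.0 FPKM to 15.5, 16.6, and 13.9 FPKM, all below the wild type, with a ratio of means of 0.636 (log2 fold change -0.62, SE 0.12, limma adjusted p = 0.00804). LOC_Os11g07020, the most abundant locus of the class, was at 23.7, 29.6, and 31.8 FPKM in the wild type and at 39.0, 37.0, and 28.1 FPKM in *ssh1* (log2 fold change 0.28, limma adjusted p = 0.197). LOC_Os11g47970 had 9.98 ± 0.366 and 9.20 ± 1.97 FPKM (SD, n = 3 each), with only *ssh1* replicate 3, at 6.93 FPKM, away from the other values. The log2 fold changes of LOC_Os02g47020, LOC_Os04g16680, and LOC_Os03g03720 were 0.11, -0.03, and -0.17, and none passed the test.

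The 8 loci of chlorophyll synthesis spanned a narrower range of change than the light-harvesting, photosystem, electron carrier, and Calvin cycle loci. Their log2 fold changes ran from -0.36 to 0.55, and 2 rose (25%), 2 fell (25%), and 4 did not pass. Of all genes tested, 17% rose and 28% fell. The test is against 0, whereas the median of all genes tested was -0.14, so the small falls lie close to that shift. LOC_Os10g41780 rose from 21.7, 19.1, and 24.5 FPKM to 31.6, 31.7, and 33.6 FPKM, 1.48-fold (log2 fold change 0.55, SE 0.10, limma adjusted p = 0.00616). LOC_Os03g22780 rose from 6.06 ± 1.01 to 8.81 ± 0.668 FPKM (SD, n = 3 each, limma adjusted p = 0.0255). In the other direction, LOC_Os03g59640 fell from 9.47, 9.30, and 9.88 FPKM to 7.06, 6.89, and 7.70 FPKM (log2 fold change -0.36, limma adjusted p = 0.0129). LOC_Os05g28200 fell from 46.3 ± 2.57 to 37.5 ± 1.13 FPKM (SD, n = 3 each), that is, by a log2 fold change of -0.29 (limma adjusted p = 0.0145).

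The most abundant locus of chlorophyll synthesis, LOC_Os04g58200, was at 112, 128, and 159 FPKM in the wild type and at 145, 102, and 145 FPKM in *ssh1*. Its log2 fold change of -0.03 (SE 0.19, limma adjusted p = 0.916) had no stable sign. LOC_Os03g36540 and LOC_Os10g35370 had ratios of means of 1.02 and 1.0, and LOC_Os03g20700 of 1.11. In *ssh1* the replicates of LOC_Os03g36540 (16.3, 16.7, and 16.4 FPKM) and LOC_Os03g20700 (24.6, 24.8, and 23.8 FPKM) were nearly equal. The class median was 0.016 on the log2 scale, and without wild-type replicate 1, wild-type replicate 2, or *ssh1* replicate 1 it was -0.005, -0.026, and -0.0047.

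The replicates of a genotype differed in the level of the whole group. In the wild type, replicate 3 had the highest value of the 3 in 38 of the 47 tested members (80.9%), against 31.2% of all genes tested. Wild-type replicate 1 had the lowest in 27 (57.4%, against 32.3% of all genes tested). Wild-type replicate 3 was the highest in all 10 photosystem loci, in 10 of 13 light-harvesting loci, and in 7 of 8 loci of chlorophyll synthesis. In *ssh1*, replicate 1 was the highest in 30 of the 47 (63.8%, against 34.9% of all genes tested), including 11 of 13 light-harvesting and 8 of 10 photosystem loci, and replicate 2 was the lowest in 24 (51.1% against 44.6%). Chlorophyll synthesis did not share this order in *ssh1*, where replicate 1 was the highest in 1 of 8 loci.

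**Figure D4:**
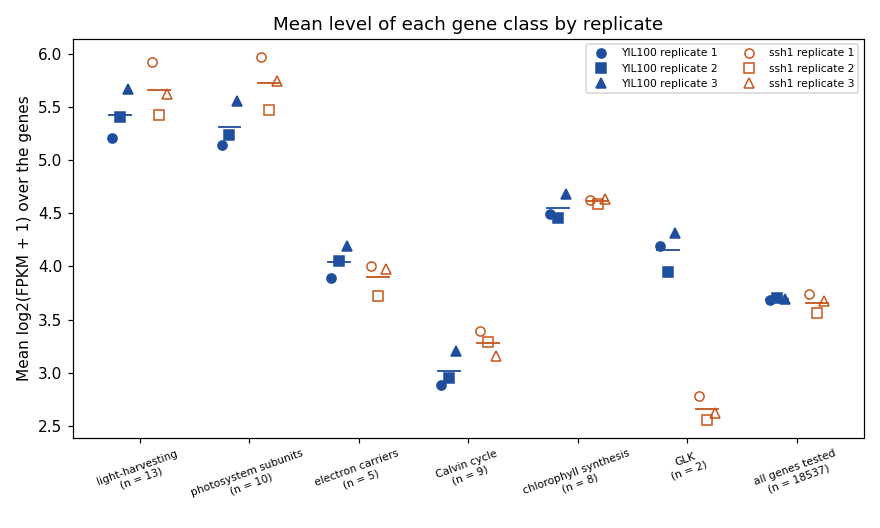
Mean log2(FPKM + 1) over the tested loci of each class in each replicate, with all 18537 genes tested at the right (symbols, replicates; lines, group means). Wild-type replicate 3 is the highest wild-type symbol in every class, *ssh1* replicate 1 is the highest *ssh1* symbol in all classes but chlorophyll synthesis, and the genotypes are apart in the GLK class.

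The summed level of the 47 tested members was 1579, 1750.2, and 2082 FPKM in wild-type replicates 1, 2, and 3, and 2526, 1811, and 2116 FPKM in *ssh1* replicates 1, 2, and 3. The genotypes overlapped, since *ssh1* replicate 2 lay below wild-type replicate 3. The light-harvesting loci alone summed to 665, 788, and 933 FPKM in the wild type and to 1176, 784, and 914 FPKM in *ssh1*. The photosystem loci summed to 434, 464, and 554.1 FPKM and to 776, 549.9, and 668 FPKM. Both sums overlapped between the genotypes. For the light-harvesting loci, *ssh1* replicates 2 and 3 lay below wild-type replicate 3, and *ssh1* replicate 2 also lay below wild-type replicate 2. For the photosystem loci, *ssh1* replicate 2 lay just below wild-type replicate 3. As a percentage of the summed FPKM of a replicate, the photosystem loci were at 0.047, 0.0474, and 0.0627 in the wild type. In *ssh1* they were at 0.0821, 0.0661, and 0.0699, without overlap. On that scale the light-harvesting loci and the 47 members still overlapped between the genotypes. The mean of log2(FPKM + 1) over the 47 loci averaged 4.59 ± 0.18 in wild-type and 4.73 ± 0.16 in *ssh1* replicates (SD, n = 3 each), a difference of 0.14 that is smaller than the spread within a genotype. The GLK pair, which fell, lowers the *ssh1* mean. Over the 45 loci outside the GLK class the means were 4.61 ± 0.18 and 4.82 ± 0.16 (SD, n = 3 each), a difference of 0.21. Leaving out loci that fell can only raise the difference. These 45 also still hold LOC_Os09g26810 and LOC_Os12g19470, which were tested only through *ssh1*. For the 10 photosystem loci the means were 5.31 ± 0.21 and 5.73 ± 0.25, a difference of 0.42. No test is given for these means.

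The spread of these genes within the wild type was wider than that of most genes. The median SD of log2(FPKM + 1) over the 3 wild-type replicates was 0.22 for the members and 0.10 for all genes tested, whereas in *ssh1* it was 0.19 and 0.16. The SD was larger in *ssh1* than in the wild type for 18 of the 47 members (38.3%) and for 69.3% of all genes tested. LOC_Os01g13740 was an exception with a coefficient of variation of 3.20% in the wild type and 2.32% in *ssh1*, against 35.1% and 53.2% for LOC_Os01g41710.

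The median log2 fold change was 0.14 over the 47 members and 0.12 over the 45 with a mean of at least 1 FPKM in each genotype, beside -0.14 over all genes tested. A log2 fold change above 0 was seen in 30 of the 47 members, in 28 of those 45, and in 38.3% of all genes tested. For 30 of the 47 the log2 fold change was within 0.5 of 0. Without *ssh1* replicate 1, 24 of 46 members were above 0 and their median was 0.023. The summed level of the floral marker loci was lower in each *ssh1* replicate than in each wild-type replicate. Of the 12 tested, 5 fell while 1, LOC_Os03g54160, rose, where 28% of all genes tested fell and 17% rose. LOC_Os03g54160 went from 112 ± 17.7 to 244 ± 6.71 FPKM (SD, n = 3 each). With a log2 fold change of 1.12 (limma adjusted p = 0.000918) it was past the stricter thresholds. The tested anther and tapetum markers summed to 6.14 to 6.84 FPKM in the wild type and 3.65 to 5.50 FPKM in *ssh1*. Whether the make-up of the panicles had a part in the differences of the photosynthesis genes was not tested.

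Further genes of the same pathways, from lists chosen with earlier results of these data known, also moved in different directions. Of 5 tested loci of chlorophyll synthesis outside the member list, 2 rose and 2 fell, where 17% of all genes tested rose and 28% fell. LOC_Os01g17170 rose from 33.9, 34.5, and 40.8 FPKM to 64.4, 64.7, and 58.8 FPKM (log2 fold change 0.77, limma adjusted p = 0.00144) and LOC_Os10g35840 from 18.2 ± 0.783 to 27.6 ± 1.5 FPKM (SD, n = 3 each). LOC_Os06g04150 fell from 10.6, 8.59, and 10.5 FPKM to 4.51, 1.26, and 4.91 FPKM (log2 fold change -1.37, limma adjusted p = 0.0263), and LOC_Os11g16550 from 18.2 ± 2.30 to 9.68 ± 2.51 FPKM (SD, n = 3 each).

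Of 3 photosystem II loci outside the member list, LOC_Os07g36080 was past the stricter thresholds, where 3.19% of all genes tested were called higher. It rose from 33.3, 37.0, and 45.2 FPKM to 135, 131, and 105 FPKM, 3.21-fold (log2 fold change 1.66, SE 0.14, limma adjusted p = 0.000524), a larger rise than that of any photosystem member. Of 4 other Calvin cycle loci, 1 fell and the other 3 did not pass, where 28% of all genes tested fell. LOC_Os03g16050 fell from 2.86, 2.71, and 3.49 FPKM to 1.23, 0.963, and 1.0 FPKM (log2 fold change -0.96, limma adjusted p = 0.00253).

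The 4 loci of chlorophyll breakdown, also chosen with earlier results known, were higher in each *ssh1* replicate than in each wild-type replicate, and 2 passed the test. Of all genes tested, 21.7% were without overlap in the higher direction and 17% rose. LOC_Os01g12710 rose from 8.02, 8.87, and 8.07 FPKM to 17.6, 15.7, and 15.9 FPKM (log2 fold change 0.90, SE 0.08, limma adjusted p = 0.00059). LOC_Os03g05310 rose from 12 ± 0.707 to 16.9 ± 3.40 FPKM (SD, n = 3 each, limma adjusted p = 0.0482). LOC_Os09g36200 was at 0.970, 2.08, and 1.62 FPKM in the wild type and at 19.5, 6.35, and 2.74 FPKM in *ssh1* (log2 fold change 1.72, SE 0.60, limma adjusted p = 0.0576), again with *ssh1* replicate 1 the highest.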

How the data were processed

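RNA of 0- to 4-cm young panicles was sequenced from the wild type YIL100 and *ssh1*, with 3 replicates each, numbered in the sample labels. The authors mapped paired-end reads with TopHat2 to the Nipponbare genome IRGSP-1.0 (MSU7 annotation) and deposited FPKM per gene and replicate, calculated with Cuffdiff. Tool versions, read totals, and the treatment of multiply mapped reads are not given in the sources used here. FPKM are not counts, so no count model or counting interval was used.

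Here 4 duplicated locus IDs were dropped, which left 55982. limma 3.58.1 in R 4.3.3 was fitted to log2(FPKM + 1) of all genes whose mean reached 1 FPKM (eBayes with a mean-variance trend, genotype as the only term, Benjamini-Hochberg adjustment over 18537 genes), in place of Cuffdiff, which needs reads. The calculation was tested on simulated data. Where nothing shows that replicates were grown apart, p-values measure the spread between these samples only.

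The members and lists were chosen with earlier results of these data known. Named in full were, per class, the most abundant locus and the largest change, the GLK loci, and every locus past the stricter thresholds, and other loci were named after their values were seen. Alternatives were the pseudocount, filters, scalings, sample weights (statmod 1.5.0), robust estimation, a replicate block, and each replicate left out. Plots were drawn with matplotlib 3.10.9. Sequences were not used here.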

Additional observations from a re-analysis of the deposited data

How the results depend on the processing

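LOC_Os01g13740 was the 1 member called lower under all alternatives except the replicate block, with 0 called. The count called higher at the stricter thresholds, 0, became 1 (LOC_Os12g19381) with a minimum mean of 5 FPKM, median-of-ratios scaling, quantile normalization, or sample quality weights. At an adjusted p below 0.05 with a 2-fold change, 1 to 4 members were higher and 2 to 3 lower when a replicate was left out. The log2 fold change of *SNB*, -1.11, was no longer past the stricter thresholds without the filter (-1.11), with median-of-ratios scaling (-0.98), with the replicate block (-1.11), and with any replicate left out (-1.17 to -1.02). LOC_Os04g58200 turned from -0.03 to 0.00070 when rescaled to a common sum, 0.11 with median-of-ratios scaling, and 0.058 with sample quality weights, and it spanned -0.14 to 0.14 with a replicate left out. LOC_Os09g17740 ranged from -0.085 to 0.50. The cause was not tested. The median of the members ranged from 0.023 to 0.26 with a replicate left out.

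Same-numbered replicates were not paired by the labels, and their deviations correlated at -0.10, -0.07, and -0.17 across genes. With the replicate block, 0 of all 18537 genes passed the stricter thresholds (2541 had a 2-fold change at an unadjusted limma p below 0.05, against 2545 without the block), and 11 members rose and 5 fell at an adjusted p below 0.05 (13.2% and 18.6% of all genes in that fit). Without read totals, the error of a single low value is unknown.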
